A study of Sus scrofa with 48 samples.

Results

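The interferon response and antigen presentation genes examined here were 57 genes chosen by name: nucleic acid sensors, interferon receptors and their kinases, transcription factors, the ISG15 pathway, interferon-induced effectors, and the class I and class II presentation machinery. Of these, 53 had a probe that could be named on the array and 52 could be tested, out of 11278 genes tested in all. The rule for testing a listed gene used gene symbols and detection above background, and no diet or line difference. The list itself was chosen with earlier results of these data known. IRF8, UBA7, CIITA and IFITM3 had no named probe, and the IFITM2 probe was well above background on 1 of 12 arrays in the HF low RFI group, 1 of 12 in the LF high RFI group and none in the other groups. All but 1 of the 52 tested genes passed that detection flag on every one of the 48 arrays.

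The samples were subcutaneous adipose tissue (SCAT) of 48 Large White barrows aged 132 days per the labels, with 1 array per pig. Selection had driven 2 lines apart on residual feed intake (RFI), where a low value marks a pig that eats less than its growth would predict. Pigs of both lines were fed an HF diet, rich in fat and fiber, or an LF diet, rich in starch, so that each pairing of a diet with a line held 12 pigs. Line and selection history cannot be told apart, since there was 1 line in each direction, and the diets differed in fat, fiber and starch together. The study reports that HF pigs ate less, weighed less and had less fat, and that body weight differed between the lines. These traits cannot be told apart from diet or line in these samples.

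Interferons are secreted by cells that sense foreign nucleic acid or by lymphocytes. They bind receptors whose JAK kinases activate STAT and IRF factors, and these switch on a broad set of antiviral genes and raise the display of peptides on class I and class II molecules. In adipose tissue, adipocytes, macrophages and vessel cells all respond to interferon, and the class II genes are carried mainly by antigen-presenting cells.

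Between 62.18% and 81.87% of probes were well above background on each array. The adipocyte markers had a summed level between 11.53 and 12.04 (log2, relative to the array median) on every array, and 11 of 12 could be tested. Arrays lay on 6 slides of 8, each with 2 pigs of every group, and were scanned on 2 dates. In bulk tissue, fewer cells of a type and less RNA per cell cannot be told apart.

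The probes behind the called genes are shown first, since a probe is what was measured. Each is 60 bases long, and the array files list no genome position for any of them. The IRF7 probe is the brightest of 3 for that gene, while TRIM25 and HLA-B had 1 probe each, both annotated to a human transcript.
IRF7: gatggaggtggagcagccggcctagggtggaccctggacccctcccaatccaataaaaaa
TRIM25: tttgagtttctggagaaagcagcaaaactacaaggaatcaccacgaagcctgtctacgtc
HLA-B: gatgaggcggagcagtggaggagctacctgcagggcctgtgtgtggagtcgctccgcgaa
The pig class I heavy chain genes, which are close relatives of HLA-B, were read by probes that can nearly coincide. The next sequences are an SLA-1 pair that differs by T13A within a shared stretch of 41 bases and an SLA-8 pair that differs by A56G within 58 bases, with positions counted from 1 at the 5′ end of the first probe named and the differing base in capitals. Outside the shared stretch the SLA-1 probes also differ, since bases that follow it in probe A are missing from probe B.
SLA-1 probe A: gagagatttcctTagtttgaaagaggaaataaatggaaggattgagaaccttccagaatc
SLA-1 probe B: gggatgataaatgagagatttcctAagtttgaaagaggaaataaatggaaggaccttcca
SLA-8 probe A: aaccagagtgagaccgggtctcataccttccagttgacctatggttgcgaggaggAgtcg
SLA-8 probe B: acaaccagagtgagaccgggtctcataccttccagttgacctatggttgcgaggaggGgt
SLA-8 probe C ends in the 13 bases, in capitals, with which probe A begins, and probe D, the brightest, shares no such stretch.
SLA-8 probe C: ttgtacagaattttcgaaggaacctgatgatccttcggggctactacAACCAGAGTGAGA
SLA-8 probe D: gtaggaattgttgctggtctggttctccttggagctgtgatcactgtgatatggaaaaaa
The HLA-B probe shared at most 9 bases in a row with any of the pig class I heavy chain probes.

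The first comparison asked whether diet shifted these genes in SCAT. A gene was called with limma when its p-value was under 0.01, its fold change over 1.1 and its Benjamini-Hochberg adjusted p under 0.08, which are the cut-offs of the study. Of the 52 genes, 1 was called by diet, IRF7, which was down-regulated by the HF diet. Across all genes tested, 12.6% were called by diet, and 3.33% were higher and 9.27% lower under HF. At an unadjusted p under 0.05 there were 3 of the 52 genes (5.77%), against 25.8% of all genes tested. The median HF minus LF difference was 0.02 on the log2 scale over the 52 genes (29 higher, 23 lower) and -0.04 over all genes tested (4261 higher, 7017 lower) with arrays centred on their median. With 75th percentile scaling the medians were 0.06 (40 higher, 12 lower) and 0.00 (5708 higher, 5570 lower), and with quantile normalization 0.04 (40 higher, 12 lower) and -0.02 (5008 higher, 6270 lower).

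**Figure D1:**
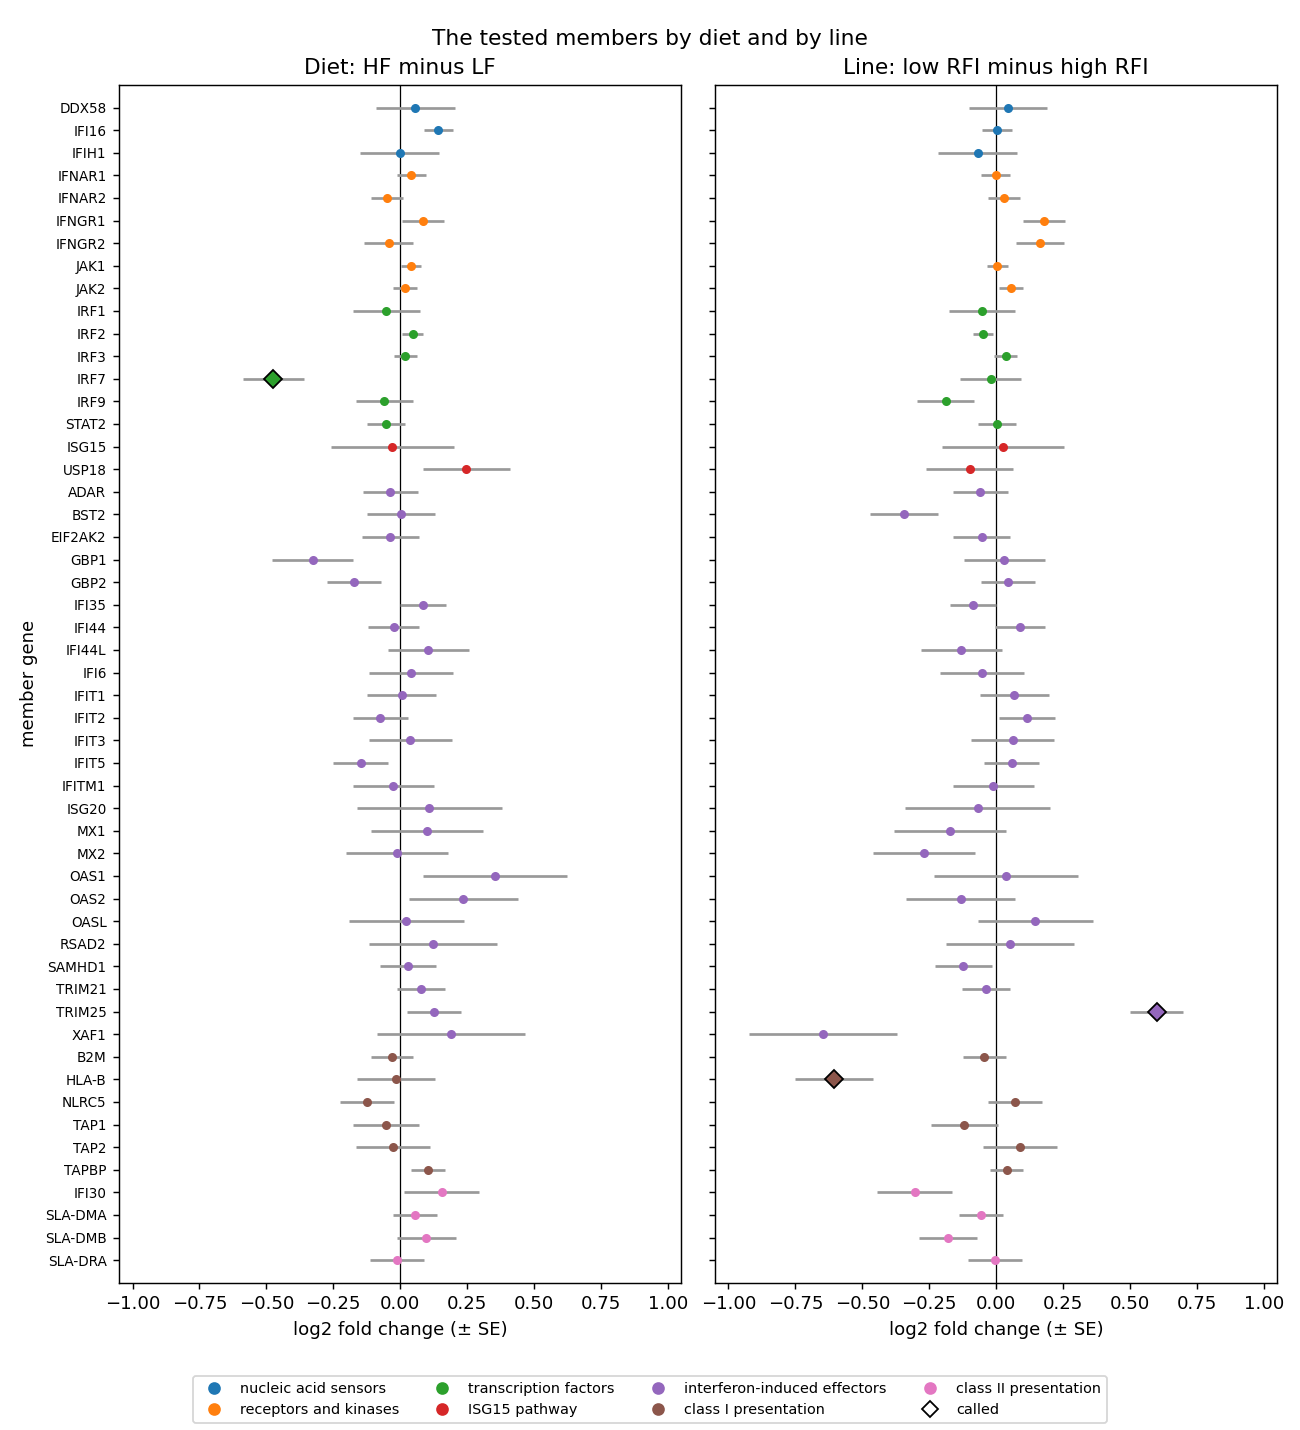
Log2 fold change with its SE for each of the 52 tested genes, HF minus LF on the left and low RFI minus high RFI on the right, coloured by role; diamonds are called genes. IRF7 at -0.47 stands apart by diet, and TRIM25 at 0.60 and HLA-B at -0.61 by line, whereas XAF1 at -0.65 has a wide error and was not called.

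Among the 3 sensors, none was called by diet, and the HF pigs had higher levels of 2 and lower levels of 1, or of 3 and 0 with either of those scalings. IFI16, a sensor of DNA in the nucleus and cytoplasm, ranged from 3.03 to 3.68 (median 3.44) in the HF pigs and from 2.99 to 3.67 (median 3.25) in the LF pigs. The ranges overlapped almost wholly, yet 20 of 24 HF pigs lay above the LF median. Its difference was 0.14 (SE 0.05, limma adjusted p = 0.0806), just outside the cut-offs, and its second probe also gave 0.14. IFI16 passed the cut-offs when arrays were scaled to their 75th percentile or by quantiles, with adjusted p = 0.0345 and 0.0278, and also with probes well above background on all arrays (0.0591) or the mean of its probes (0.0468), and without the LF low RFI pig numbered 7 (0.0613). IFIH1, the cytosolic sensor of long double-stranded RNA, differed by 0.00 by diet (SE 0.15) and by -0.07 by line (SE 0.15, limma adjusted p = 0.952). Without the LF low RFI pig numbered 7 these differences were 0.07 and -0.14 (SE 0.14 for each).

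Of the 6 receptor and kinase genes, HF pigs had higher levels of 4 and lower levels of 2 (6 and 0 with quantile normalization), with none called and differences from -0.05 to 0.08. The IFNAR2 probe was bright, at 9.06 to 10.01 over the 48 pigs, against 0.05 to 0.76 for IFNAR1 and 7.88 to 9.21 for B2M. Whether it reads IFNAR2 was not tested. IFNGR1, the ligand-binding chain of the interferon gamma receptor, ranged from 2.47 to 3.69 (median 2.99) in HF pigs and from 2.51 to 3.60 (median 2.89) in LF pigs, so that the groups overlapped along their whole length. The difference of 0.08 (SE 0.08) was not called (limma adjusted p = 0.532).

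IRF7, the transcription factor that drives transcription of the type I interferon genes, was the gene called by diet. In the HF low RFI pigs its level ran from 2.26 to 3.77 (median 2.83), and in the HF high RFI pigs from 2.21 to 3.17 (median 2.92). In the LF low RFI pigs it ran from 2.43 to 4.15 (median 3.31), and in the LF high RFI pigs from 2.47 to 3.86 (median 3.43). The LF pigs were the higher in both lines, with overlapping ranges: 23 of 24 HF pigs lay under the LF median and 21 of 24 LF pigs above the HF median. The mean was 2.85 ± 0.36 (SD, n = 24) under HF and 3.33 ± 0.44 (SD, n = 24) under LF. The difference was -0.47 (SE 0.11), a 1.39-fold lower level under HF (limma adjusted p = 0.00448).

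The other 2 IRF7 probes also gave lower values under HF, by -0.40 (limma adjusted p = 0.00109) and -0.23 (limma adjusted p = 0.0772), the last not called. Fitted over all 44356 probes, 13.1% were called by diet. The difference was -0.41 in low RFI pigs and -0.54 in high RFI pigs. It was -0.53 on the arrays of the first scan date (limma adjusted p = 0.0473) and -0.42 on those of the second (limma adjusted p = 0.215), where the call was lost. By line, IRF7 differed by -0.02 (SE 0.11).

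**Figure D2:**
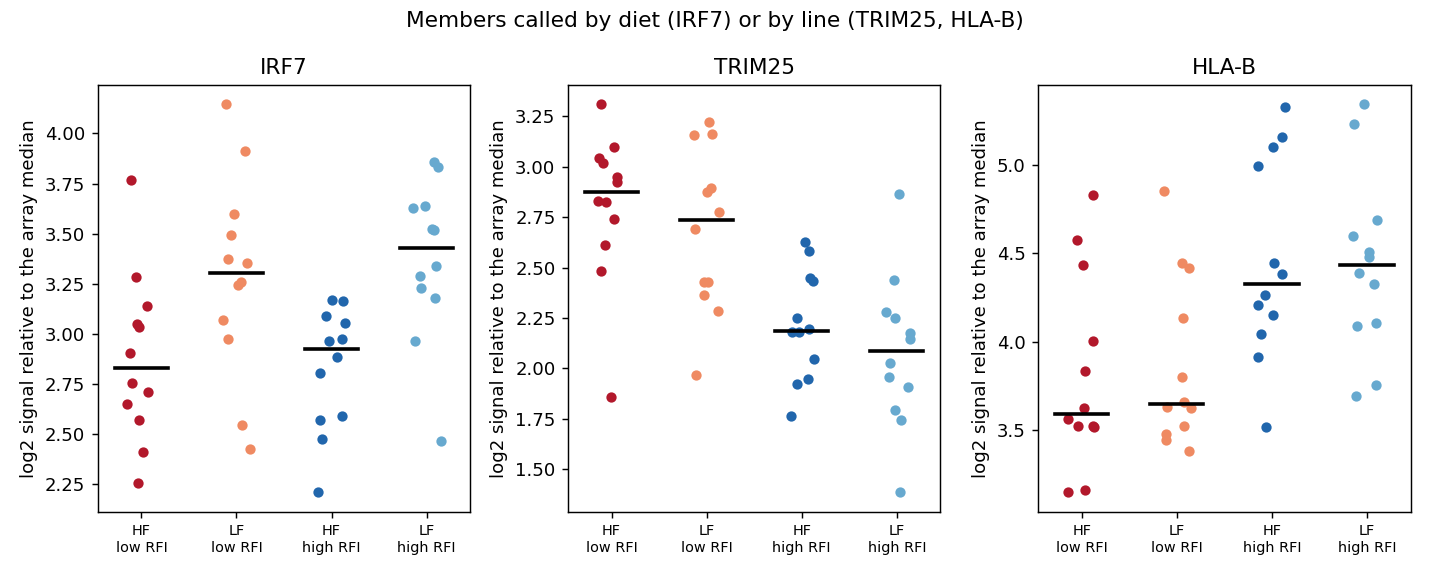
Log2 signal relative to the array median of IRF7, TRIM25 and HLA-B in each of the 48 pigs, with a line at each group median. IRF7 medians are 2.83 and 2.92 in the HF groups and 3.31 and 3.43 in the LF groups, while the TRIM25 medians are higher and the HLA-B medians lower in both low RFI groups.

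The other 5 tested transcription factors were not called. Their differences by diet lay between -0.06 and 0.05, and 2 of the 6 factors were higher under HF. IRF9, the DNA-binding subunit of a complex that acts downstream of type I interferon, differed by -0.06 (SE 0.11, limma adjusted p = 0.775).

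In the ISG15 pathway, USP18, the protease that removes ISG15 from proteins and restrains receptor signalling, ranged from 3.29 to 5.09 (median 3.92) in HF pigs and from 2.64 to 5.78 (median 3.87) in LF pigs. The LF pigs spanned the wider range and enclosed the HF pigs. Its difference of 0.25 (SE 0.16) was not called (limma adjusted p = 0.347). ISG15, the ubiquitin-like modifier itself, differed by -0.03 (SE 0.23).

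Of the 25 tested effectors, 16 were higher and 9 lower under HF and none was called, with a median of 0.03 and a range from -0.33 to 0.35. The split was 21 and 4 with 75th percentile scaling and 19 and 6 with quantile normalization. Without the LF low RFI pig numbered 7, left out after its values were seen, the effector median was 0.10. The upper end, OAS1 at 0.35, was 0.20 without the LF high RFI pig numbered 11 and 0.25 without the LF low RFI pig numbered 7, pigs left out after their values were seen. GBP1, a guanylate-binding protein that attacks intracellular pathogens, had the smallest unadjusted p among them. It ran from 3.14 to 5.12 (median 4.27) in HF pigs and from 3.63 to 5.37 (median 4.53) in LF pigs. The HF pigs were lower on average but the groups overlapped, with 17 of 24 HF pigs under the LF median. The difference was -0.33 (SE 0.15, limma adjusted p = 0.163), and its 3 probes gave -0.33 to -0.30. IFIT5, singled out after its values were seen, had a dimmer probe called by diet at -0.34 (limma adjusted p = 0.011) while its brightest probe gave -0.15 (SE 0.10) and was not called.

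In class I presentation, 1 of the 6 tested genes was higher and 5 lower under HF, with none called and a median of -0.03, which became positive, with 4 higher and 2 lower, under 75th percentile scaling (0.01) and quantile normalization (0.01). TAPBP, the tapasin chaperone that loads peptides onto class I molecules, ran from 3.80 to 4.52 (median 4.20) in HF pigs and from 3.64 to 4.36 (median 4.12) in LF pigs. The groups overlapped over most of their range, and the difference of 0.10 (SE 0.06) was not called (limma adjusted p = 0.299). B2M, the light chain shared by all class I molecules, differed by -0.05 to -0.01 on its 9 probes.

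In class II presentation, 3 of the 4 tested genes were higher under HF (4 of 4 with either other scaling) and none was called, with a median of 0.08. IFI30, a lysosomal thiol reductase that unfolds antigens, ran from 2.81 to 4.69 (median 4.10) in HF pigs and from 3.01 to 5.04 (median 3.85) in LF pigs. Although 19 of 24 HF pigs lay above the LF median, the difference of 0.16 (SE 0.14) was not called (limma adjusted p = 0.522). The summed macrophage markers, of which 12 of 15 could be tested, ran from 4.96 to 7.02 in HF and from 5.16 to 7.16 in LF pigs, with none called by diet. In other lists, 3 of 11 adipocyte markers had higher levels under HF and 8 lower (median -0.09), with LEP at -0.67 and CEBPA at -0.14 called. Of the 8 T cell markers 5 had higher levels and 3 lower (median 0.04), and the called one, CD247 at -0.20, lay against that median. The 3 lower were CD247, CD5 and LCK, at means of 4.463, 5.699 and 3.495 under HF, against -2.451 to -0.383 for the rest. What these bright probes read was not tested. Of the 3 lymph node stroma markers 2 had higher levels and 1 lower, with CCL21 at 0.88 called. All 6 skeletal muscle markers had lower levels under HF (median -0.21), with none called. Their part in the diet values was not tested.

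The second comparison asked whether the lines differed. By line 2 of the 52 genes were called, TRIM25 higher and HLA-B lower in low RFI pigs. Across all genes tested, 1.21% were called by line, 0.798% higher and 0.408% lower in low RFI pigs. At an unadjusted p under 0.05 there were 6 of the 52 genes (11.5%), close to the 10.3% of all genes tested. The median low minus high RFI difference was -0.01 over the 52 genes (24 higher, 28 lower) and 0.02 over all genes tested (6602 higher, 4676 lower). With 75th percentile scaling the medians were -0.02 (21 higher, 31 lower) and 0.01 (6059 higher, 5219 lower), and with quantile normalization -0.02 (20 higher, 32 lower) and 0.01 (5985 higher, 5293 lower).

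TRIM25 is an E3 ubiquitin ligase that activates the RNA sensor encoded by DDX58. Its level ran from 1.86 to 3.31 (median 2.88) in HF low RFI pigs and from 1.97 to 3.22 (median 2.73) in LF low RFI pigs. It ran from 1.76 to 2.63 (median 2.19) in HF high RFI pigs and from 1.38 to 2.86 (median 2.09) in LF high RFI pigs. Low RFI pigs were the higher under both diets, and although the ranges overlapped, 22 of 24 low RFI pigs lay above the high RFI median and 23 of 24 high RFI pigs under the low RFI median. The mean was 2.75 ± 0.38 (SD, n = 24) in low RFI and 2.15 ± 0.33 (SD, n = 24) in high RFI pigs. The difference was 0.60 (SE 0.10), a 1.52-fold higher level in low RFI (limma adjusted p = 0.000618).

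The TRIM25 difference was 0.59 under HF and 0.61 under LF. It was 0.78 on the first scan date (limma adjusted p = 0.00196) and 0.42 on the second (limma adjusted p = 0.61), where it was not called. DDX58 itself differed by 0.04 by line (SE 0.15), a sign that 1 pig set: without the LF low RFI pig numbered 7 it was -0.04 (SE 0.13). By contrast TRIM25 kept 0.59 without that pig (limma adjusted p = 0.000718), and TRIM25 by 0.13 by diet (SE 0.10).

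HLA-B is the array's name for a class I heavy chain, the molecule that shows peptides to cytotoxic T cells. Its probe ran from 3.15 to 4.83 (median 3.59) in HF low RFI pigs and from 3.38 to 4.85 (median 3.65) in LF low RFI pigs. It ran from 3.52 to 5.33 (median 4.32) in HF high RFI pigs and from 3.69 to 5.34 (median 4.43) in LF high RFI pigs. Low RFI pigs were mostly the lower, with overlapping ranges: 18 of 24 lay under the high RFI median, and 23 of 24 high RFI pigs lay above the low RFI median. The difference was -0.61 (SE 0.15), a 1.52-fold lower level in low RFI (limma adjusted p = 0.0255).

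The HLA-B difference was -0.65 under HF and -0.57 under LF, and -0.56 and -0.65 on the first and second scan dates, neither of which was called alone. The call was also lost with array position on the slide in the model (-0.57, limma adjusted p = 0.0978). Since class I genes are close relatives and the probe is annotated to a human transcript, which pig gene it reads is uncertain.

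The pig class I heavy chain genes give more detail, although they are not among the 57. SLA-1, SLA-2, SLA-3, SLA-6, SLA-7 and SLA-8 had 21 probes, of which 15 were lower and 6 higher in low RFI pigs, with differences from -0.64 to 0.53. Of the 21 probes 1 was called, SLA-8 probe D at -0.36 (SE 0.09, limma adjusted p = 0.0336), while 1.37% of all 44356 probes were called by line. By diet the same 21 probes lay between -0.12 and 0.09 and none was called.

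Probes named for 1 gene differed in sign by line. SLA-1 probe A ran from 5.37 to 8.31 (median 7.41) in low RFI pigs and from 6.34 to 8.75 (median 8.03) in high RFI pigs, a difference of -0.64 (SE 0.21, limma adjusted p = 0.165). Probe B ran from 4.82 to 6.74 (median 5.89) in low RFI pigs and from 4.16 to 6.76 (median 5.29) in high RFI pigs, a difference of 0.53 (SE 0.18, limma adjusted p = 0.158). On probe A 21 of 24 low RFI pigs lay under the high RFI median and on probe B 21 of 24 lay above it. Neither probe was called, and which of their sequence differences goes with the sign was not tested.

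SLA-8 probes A and B, which share 58 bases apart from A56G, had the same sign at 0.35 and 0.27 (limma adjusted p = 0.13 and 0.357). Probes C and D had the opposite sign at -0.34 and -0.36, and probe C overlaps probe A by 13 bases. On probe D, 23 of 24 high RFI pigs lay above the low RFI median. B2M differed by -0.11 to -0.04 on its 9 probes, with none called.

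**Figure D3:**
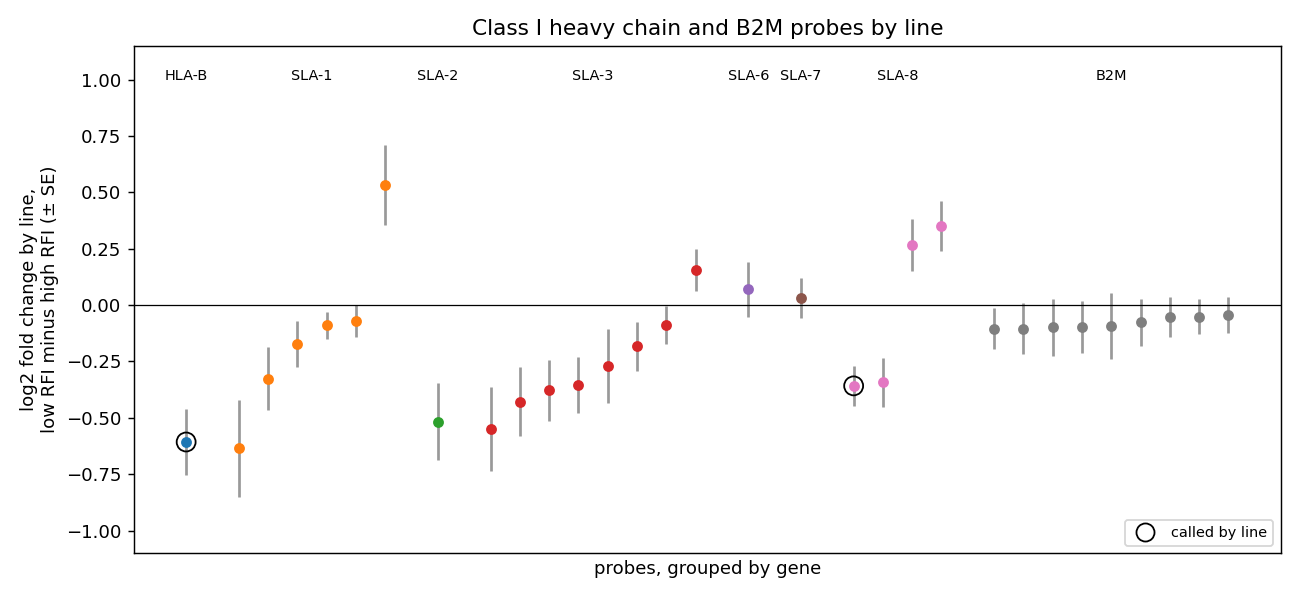
Low RFI minus high RFI log2 difference with its SE for the HLA-B probe, the 21 probes of the SLA class I heavy chain genes and the 9 probes of B2M; circles mark probes called by line. The SLA-1 probes span -0.64 to 0.53 and the SLA-8 probes -0.36 to 0.35, whereas the B2M probes lie between -0.11 and -0.04.

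In low RFI pigs 11 of the 25 effectors had higher levels and 14 lower, the 6 class I genes split into 3 and 3, and TRIM25 and HLA-B were the genes called among them. The effector median by line was -0.04, and -0.08 without the LF low RFI pig numbered 7. Without that pig IFIT1, IFIT3, IFIT5, OASL, RSAD2 and GBP1 turned negative. In the other roles no gene was called by line. Of the 6 receptor and kinase genes 5 were higher in low RFI pigs, or 3 with quantile normalization, and IFNGR1 had the smallest unadjusted p. It ran from 2.64 to 3.69 (median 3.03) in low RFI and from 2.47 to 3.45 (median 2.85) in high RFI pigs, with 19 of 24 low RFI pigs above the high RFI median. Its difference was 0.18 (SE 0.08, limma adjusted p = 0.377), and its 5 probes split into 2 near 0.17 to 0.18 and 3 between -0.01 and 0.01. USP18 differed by -0.10 (SE 0.16, limma adjusted p = 0.931), or by -0.20 without the LF low RFI pig numbered 7, which had the highest effector levels and was left out after its values were seen (limma adjusted p = 0.648). IRF9 ran from 1.39 to 2.997 (median 2.02) in low RFI and from 1.33 to 2.78 (median 2.23) in high RFI pigs, and its difference of -0.19 (SE 0.11) was not called (limma adjusted p = 0.589). TAP2, a subunit of the peptide transporter and chosen after its values were seen, had 5 probes that ran from -0.05 to 0.29 by line with none called.

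All 4 tested class II genes were lower in low RFI pigs, with a median of -0.12 and none called. IFI30 ran from 2.81 to 5.04 (median 3.87) in low RFI and from 3.28 to 4.90 (median 4.09) in high RFI pigs. The low RFI pigs reached both the lowest and the highest value. Its difference was -0.30 (SE 0.14, limma adjusted p = 0.415), and its second probe gave -0.34. SLA-DRA, the alpha chain of the DR molecule, was close to 0.00 on its brightest probe, with its other 6 probes at 0.00 to 0.06. Of the macrophage markers, 10 of 12 were lower in low RFI pigs with none called by line, a median of -0.15, and a summed level from 4.96 to 7.16 (median 5.84) in low RFI against 5.45 to 7.02 (median 6.07) in high RFI pigs. The 3 lymph node stroma markers were lower too, with a summed level from 2.95 to 4.92 in low RFI and 3.69 to 5.37 in high RFI pigs and none called by line. Other lists lay the opposite way, also with none called by line: 5 of 5 NK and cytotoxic cell markers, 6 of 8 T cell markers and 8 of 11 adipocyte markers were higher in low RFI pigs. Some of these probes were bright: in low RFI pigs GNLY had a mean of 7.76, near the adipocyte marker PLIN1 at 7.88. CD5, CD247 and LCK lay at 5.718, 4.621 and 3.563, against -2.58 to -0.401 for the other T cell markers. What the bright probes read was not tested. Of 7 B cell markers 3 could be tested, 2 of them higher in low RFI pigs, and of 6 dendritic cell markers 2, with 1 higher. The endothelium markers split into 3 higher and 4 lower and the skeletal muscle markers into 3 and 3. No marker of these lists was called by line. The part of the marker lists in the class II and HLA-B values was not tested.

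BST2, which tethers budding virus to the cell surface, and XAF1, a pro-apoptotic interferon-induced gene, fall outside the rule for named genes and were chosen after their values were seen. BST2 ran from 0.75 to 2.92 (median 1.65) in low RFI and from 1.32 to 2.81 (median 2.08) in high RFI pigs. Low RFI pigs were mostly lower, 20 of 24 lying under the high RFI median, and its difference of -0.35 (SE 0.13) was not called (limma adjusted p = 0.233). XAF1 ran from -1.47 to 3.86 (median 0.73) in low RFI and from -0.19 to 2.46 (median 1.65) in high RFI pigs. Here the low RFI pigs held both extremes, the difference of -0.65 (SE 0.28) was not called (limma adjusted p = 0.352), and its second probe gave -0.31. Both genes were called when arrays were weighted by their quality, and BST2 also without the LF low RFI pig numbered 7.

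The third comparison asked whether the diet response differed between the lines. limma called none of the 52 genes for the interaction and 0% of all genes tested. At an unadjusted p under 0.05 there were 101 genes with limma and 109 with a plain two-way analysis of variance, and none of the 52 genes with either, the smallest unadjusted p among them being 0.18 and 0.197.

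Pathway genes outside the 57 were read from a further list of 71, of which 52 could be tested. By diet 1 was called higher and 1 lower under HF, against 12.6% of all genes tested called by diet and 1.21% by line. TMEM173, which encodes STING, the adaptor of cytosolic DNA sensing, was 0.19 higher (SE 0.07, limma adjusted p = 0.0593), and CANX, a chaperone of newly made class I heavy chains and of other glycoproteins, differed by -0.18 (SE 0.04, limma adjusted p = 0.00743). On the first and second scan dates CANX differed by -0.08 and -0.28 (limma adjusted p = 0.492 and 0.0452), and TMEM173 by 0.23 and 0.14 (limma adjusted p = 0.147 and 0.529). By line only SLA-8 was called, at -0.36 (limma adjusted p = 0.0345), with -0.37 and -0.35 on the separate dates (limma adjusted p = 0.0895 and 0.685). No gene of the list was called for the interaction, and the medians were 0.01 by diet and -0.02 by line.

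The genes were also compared with each other by their deviations from the group means over the 48 pigs, as a description with no test. All genes of 1 pig share an array, so that the pairs are not independent. The median Pearson r was 0.33 over all pairs of the 52 genes and 0.01 over all pairs of genes tested. It was 0.49 among effectors, 0.76 among class II genes, 0.38 among transcription factors, 0.25 among receptors and kinases and -0.08 among class I genes. Within the first and second scan dates the effectors gave 0.46 and 0.53, the class II genes 0.77 and 0.78 and the transcription factors 0.45 and 0.38. The receptors and kinases were less alike on the separate dates, at 0.07 and 0.34, and the class I genes lay near 0 with opposite signs, at -0.02 and 0.06.

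**Figure D4:**
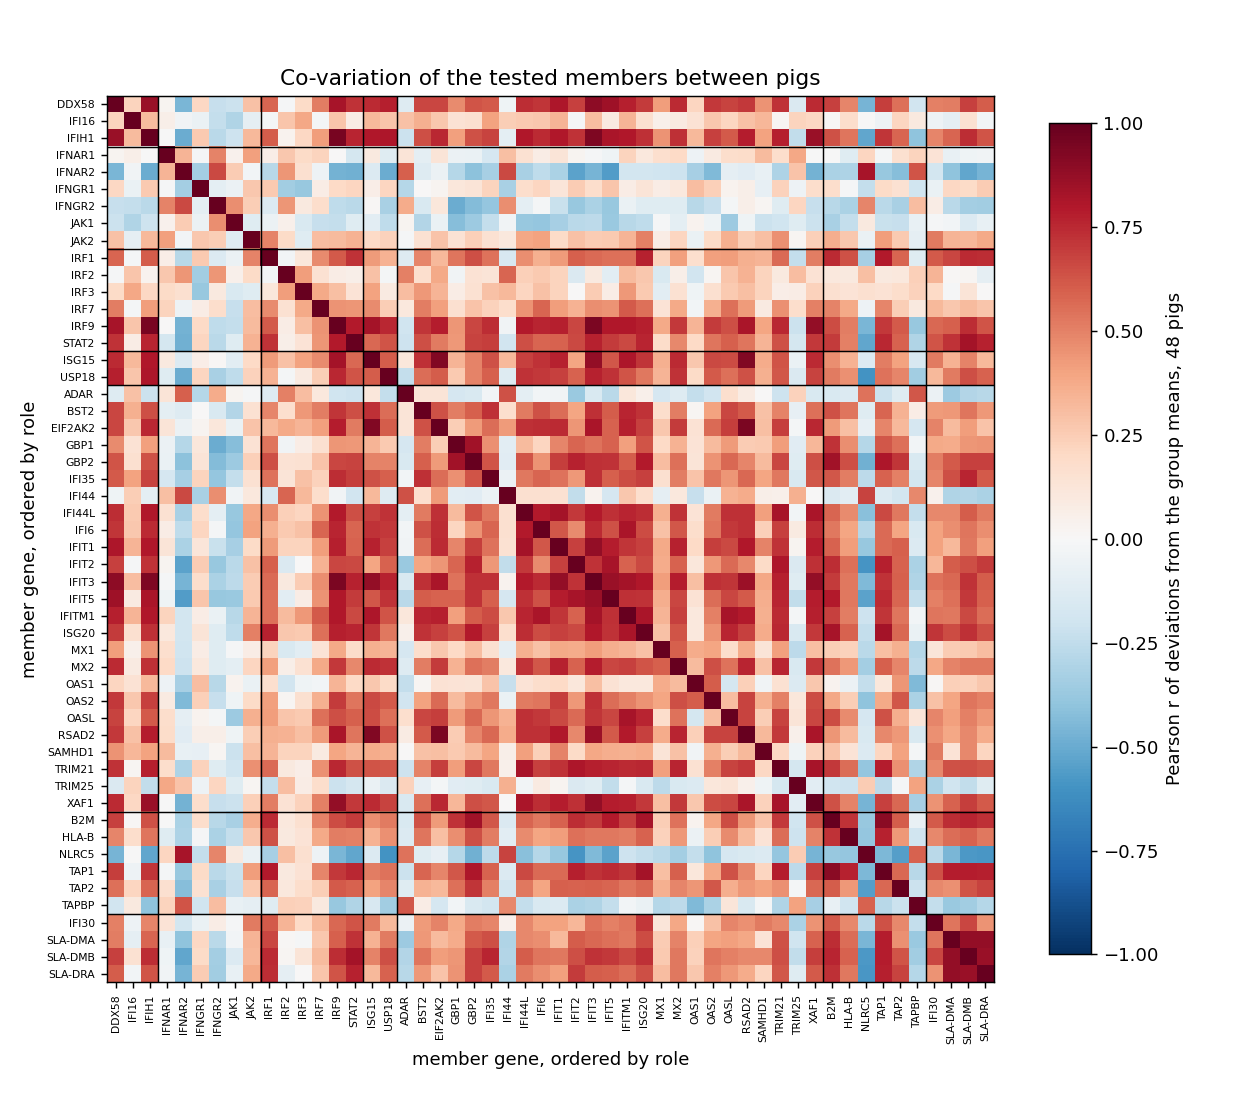
Pearson r between the 52 tested genes, from deviations from the group means over 48 pigs, in blocks by role (black lines). The effectors and class II genes form red blocks with medians of 0.49 and 0.76, while NLRC5, TAPBP, IFNAR2, ADAR, IFI44 and TRIM25 form pale or blue stripes.

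The closest pair was the sensor IFIH1 with IRF9 (r = 0.953), followed by RSAD2, which blocks viral replication at lipid droplets, with EIF2AK2, the double-stranded RNA kinase (r = 0.94). IFIT3 followed the other effectors most closely, with a median r of 0.73, and 17 of 25 effectors had a median r above 0.5. Of the called genes, TRIM25 had a median r of -0.09 with the other effectors, and IRF7 gave r = 0.468 with IFIT3. ADAR at -0.07, IFI44 at 0.08 and OAS1 at 0.14 also lay low.

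The class I genes did not form 1 group. TAP1 followed B2M (r = 0.9) and HLA-B followed TAP1 (r = 0.766), but NLRC5, the transactivator of class I genes, had a negative r with B2M (r = -0.38) and a high one with IFNAR2 (r = 0.822). What the bright IFNAR2 probe reads was not tested. TAPBP gave r = -0.076 with B2M. Class II genes had a median r of 0.52 with the macrophage markers and 0.45 with the T cell markers, effectors 0.32 and 0.15, and receptors and kinases -0.03 and -0.08. These values differed between the first and second scan dates: for class II genes they were 0.73 and 0.45 with the macrophage markers and 0.68 and 0.44 with the T cell markers, and for effectors 0.39 and 0.27, and 0.22 and 0.17. Receptors and kinases changed sign with the macrophage markers (-0.25 and 0.14) and gave -0.15 and -0.03 with the T cell markers. The median r with the adipocyte markers was -0.18 for class II genes and -0.16 for effectors. Without the LF low RFI pig numbered 7 and the HF low RFI pig numbered 5, left out after seeing the data, these were -0.08 and -0.07.

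Between pigs, the median SD within groups was 0.39 over the 52 genes, 0.54 over the effectors and 0.27 over all genes tested. It was smallest for IRF2 at 0.12 and JAK1 at 0.13 and largest for XAF1 at 0.99. A small number of pigs held the extremes. The LF low RFI pig numbered 7 was the highest of all 48 for 17 of 25 effectors, with ISG15 at 6.76 and RSAD2, IFIT1 and XAF1 at 4.03, 4.44 and 3.86. The HF low RFI pig numbered 5 was in the top 3 for 18 effectors. Without these 2 pigs, a choice made after seeing the data, the median r among effectors was 0.38 and among class II genes 0.73. With the LF low RFI pig numbered 7 alone left out of the limma fit over all genes, the median over the 52 genes was 0.07 by diet (38 higher, 14 lower) and -0.06 by line (14 higher, 38 lower). The difference changed sign for 9 genes by diet, ISG15 (0.08) among them, and for 10 by line. IRF7, TRIM25 and HLA-B were still called, and 2 more genes were called: IFI16 by diet (0.15, limma adjusted p = 0.0613) and BST2 by line (-0.40, limma adjusted p = 0.0681). No other pig was left out of that fit.

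Some effectors broke from the rest in single pigs. The same LF low RFI pig had OAS1, an enzyme that makes the activator of RNase L, at 0.20 against a median over pigs of 3.01, and the LF high RFI pig numbered 11 had it at -0.70. MX1, a GTPase that blocks influenza virus, was at 1.95 in 1 LF high RFI pig and 2.40 in 1 HF high RFI pig, against a median over pigs of 4.43. OAS2, a relative of OAS1, was at 2.20 in the LF low RFI pig numbered 12, against 5.24.

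**Figure D5:**
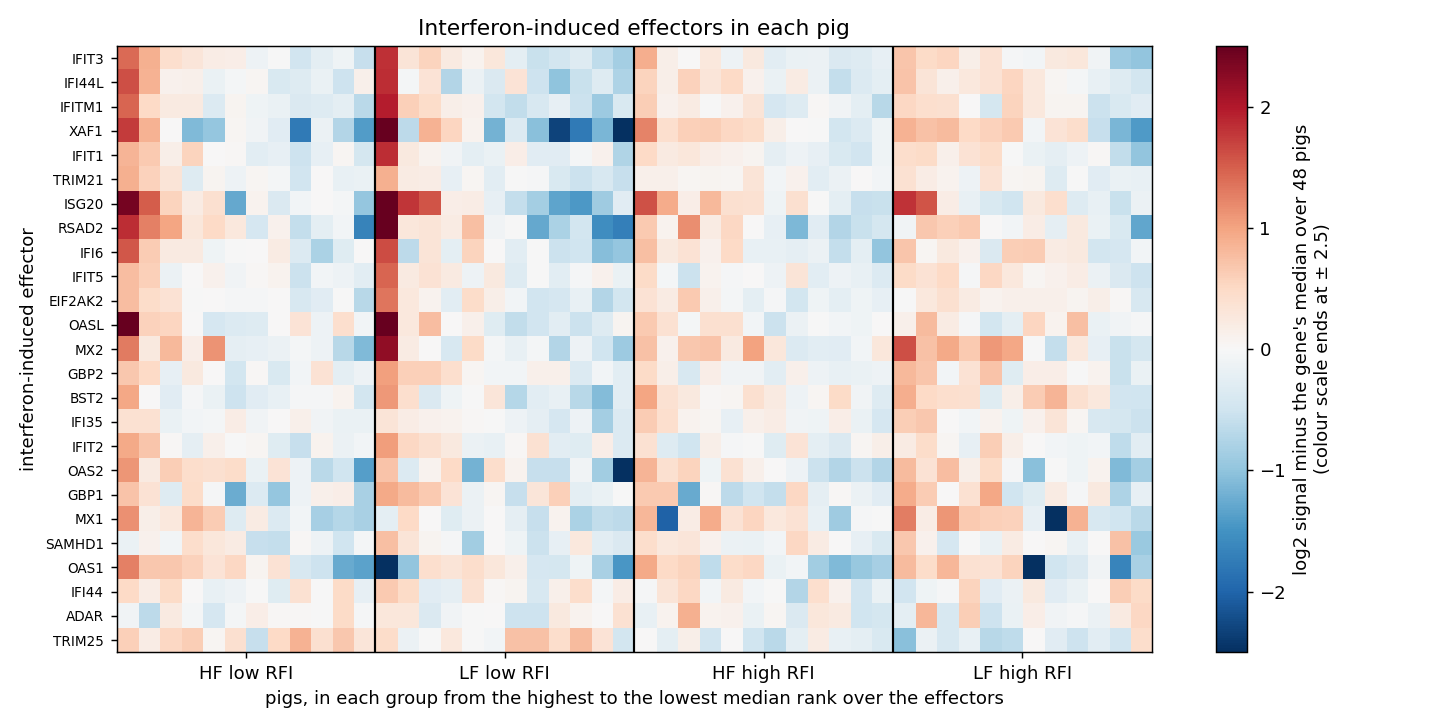
Level of the 25 tested effectors in each of the 48 pigs, as log2 difference from the median of the gene over pigs, with pigs ordered within each group by their median rank and genes by their median r with the other effectors. A few dark red columns hold the high values, and MX1, OAS1 and OAS2 each have single dark blue cells.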

How the data were processed

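Total RNA of subcutaneous adipose tissue from 48 pigs was hybridised to 1-colour (Cy3) custom porcine arrays, 1 array per pig, with no pooling. Spot intensity values were deposited by the authors as Agilent Feature Extraction 10.7.3.1 output, background-subtracted but not scaled between arrays; spot flags, deposited in the same files, are 0 or 1 values of another kind. The authors also deposited log2 median-centred values of 38987 probes made in R 2.10.0, per the submitters' processing notes. These values were recomputed to within 4.87e-09 from the median spot signals without background subtraction, a different measure from the processed signal used here. No genome build is given in the sources used here.

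The log2 processed signal was used with flagged spots (227) left out. A probe was kept when well above background on at least 9 of 12 arrays of a group (44356 probes), each array was centred on its median over kept probes, and the brightest named probe stood for a gene. The 33 missing gene-level values stayed missing. Diet, line and their interaction were fitted over 11278 genes with limma 3.58.1 in R 4.3.3 (trended variances), called at p under 0.01, fold change over 1.1 and Benjamini-Hochberg adjusted p under 0.08. The fit was tested on simulated data with known fold changes. All p-values are two-sided. The number of arrays limits the precision. Genes were named from accessions and reference tables, or otherwise by the array files.

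The named genes are those called, plus the gene with the smallest unadjusted p by diet and by line in each of 7 roles. The genes, roles and lists were chosen with earlier results of these data known. Replicate numbers were not taken to pair samples: over 72 same-numbered pairs the deviations correlated from -0.211 to 0.456 (median 0.157). Each number lay on 1 slide and 1 scan date in all groups. Alternatives covered scaling, background correction, probe filters, probe choice, slide, scan date, array position, replicate number, array weights and the test, and 1 pig was left out after seeing the data. Promoter sequences were not analysed here.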

Additional observations from a re-analysis of the deposited data

How the results depend on the processing

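Of 18 alternatives, 1 of them chosen after seeing the data (without the LF low RFI pig numbered 7), 8 left the counts of called genes as reported and 10 changed at least 1 of them. The count of genes called by diet rose from 1 to 2 (IRF7 and IFI16) with 75th percentile scaling, quantile normalization, probes well above background on all arrays, the mean of all probes of a gene, the replicate block, and without that pig, and fell to 0 on the second scan date alone. The count called by line fell from 2 to 1 (TRIM25) on the first scan date alone and with array position as a block, fell to 0 on the second scan date alone, and rose to 3 without that pig (BST2 added) and to 4 with array weights (BST2 and XAF1 added). The interaction count was 0 under every alternative. Each scan date alone has 24 arrays. The causes of the changes were not tested. Same-numbered pigs shared a slide and a scan date, and with the replicate block the diet count was 2 and the line count 2. For the 11 genes named by the rule, 355 of 396 values kept their direction and their side of the cut-offs, 6 moved inside the cut-offs, 5 moved outside, and 30 changed sign, none of them a called value. With 75th percentile scaling and quantile normalization the diet difference was 0.0266 and 0.039 for HLA-B and 0.0397 and 0.0109 for IFIH1, and the line difference of IFI16 was -0.0069 and -0.009. With normexp background HLA-B by diet was 0.0095 and IFI16 by line -0.0009. Without the filter on dim probes IFI16 by line was -0.0024; with probes well above background on all arrays it was -0.0005 and IFIH1 by diet 0.0078. With the mean of all probes IFIH1 by diet was 0.0513, IRF7 by line 0.031 and IFI16 by line -0.0334. On the first scan date alone HLA-B by diet was 0.0137, IRF7 by line 0.1233, IFI16 by line -0.008 and GBP1 by line -0.1357, and on the second IFIH1 and IRF9 by diet were 0.0718 and 0.0263. Array position as a block gave 0.02 for HLA-B and 0.0347 for IFIH1 by diet, and -0.002 for IFI16 and -0.0168 for GBP1 by line. With array weights HLA-B by diet was 0.0348 and GBP1 by line -0.0174. Without that pig HLA-B and IFIH1 by diet were 0.0303 and 0.0653, and IFI16 and GBP1 by line -0.0034 and -0.0019. Role medians near zero changed sign in places: on the first scan date alone the line median over the effectors was 0.03 and over the 52 genes 0.01. Genes without a named probe and IFITM2 could not be read, and which class I gene each heavy chain probe reads was not tested.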
